A study of Mus musculus with 6 samples.

Results

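The plasma membrane of a muscle fibre, the sarcolemma, is torn during contraction and resealed, and 10 genes of this repair machinery were examined in a bulk RNA-Seq series of mouse muscle. They were chosen by symbol from the count tables and are Dysf, Myof, Anxa1, Anxa2, Anxa5, Anxa6, Trim72, Cav3, Ptrf and Capn3. All 10 were found among the 24421 genes listed, and all 10 passed the filter on low counts that left 14180 genes tested. Ptrf is the older symbol of Cavin1. The series measured gastrocnemius/plantaris (GP) muscle of male mice, 1 mouse per library, at 5 months of age and 3 months after tamoxifen. The labels give the strain background as B6C3F1, and per the study's methods the founders, from B6C3F1 zygotes, were mated to C57BL/6N mice. By its label, each of the 3 Ctrl mice had Net39 fl/fl alleles and no Cre. By theirs, the 3 cKO mice had Net39 fl/fl alleles and HSACreERT2, a tamoxifen-activated Cre driven by the human skeletal actin promoter, which is active in muscle fibres and not in the other cells of the tissue. Net39 encodes a protein of the nuclear envelope of muscle, and the comparison asks how the muscle transcriptome differs after its deletion in adult fibres.

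The targeted gene goes against the labels. Net39, listed under its older symbol Ppapdc3, was at 7.92, 7.75 and 5.93 CPM (counts scaled to a common library size) in Ctrl-labelled libraries and at 151, 113 and 138 CPM in cKO-labelled libraries. The log2 fold change of cKO-labelled libraries over those labelled Ctrl was 4.22 (SE 0.17, edgeR adjusted p = 0.000161). The high Net39 counts are thus in cKO-labelled libraries, against the genotypes the labels give. Each direction given here is that of the labels, which were kept as deposited. Were the labels of the libraries exchanged, which cannot be told from these files, every direction with respect to Net39 loss would be the reverse. Total counts per library were 33860001 to 48839910. Replicates differed by more than counting error, and p-values measure the spread between mice.

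Resealing of a torn sarcolemma starts with calcium entry. Vesicles are then brought to the wound and fuse with it, a step in which the ferlins and the muscle protein MG53 take part, while annexins bind the exposed phospholipids in a calcium-dependent manner and form a cap over the lesion. Caveolae, small pits built from caveolins and coated by cavins, hold a reserve of membrane, and the calpains are proteases that cut proteins at the wound. Inherited loss of dysferlin, caveolin 3 or calpain 3 causes muscle disease in humans.

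The RefSeq promoter table (GRCm38.p6) held 9 of the 10 members. The 250 bases before the transcription start are shown for 3 of the 4 members that differed between the labelled groups, so that the start regions behind the result can be read. The matching window of Anxa1, the fourth, lies wholly in an exon of the gene in GENCODE M21 and is not shown, and that of Anxa2 was cut to the 187 bases before its first annotated exon. The Trim72 window, chr7:128004128-128004377 on the plus strand, lies between annotated Trim72 exons, which share bases with the antisense gene Gm15533. The Anxa2 stretch is chr9:69453433-69453619 on the plus strand, and the Myof window is chr19:38043578-38043827 on the minus strand. Letters are 5′ to 3′, and capitals mark a match to the AP-1 motif TGANTCA.
Trim72: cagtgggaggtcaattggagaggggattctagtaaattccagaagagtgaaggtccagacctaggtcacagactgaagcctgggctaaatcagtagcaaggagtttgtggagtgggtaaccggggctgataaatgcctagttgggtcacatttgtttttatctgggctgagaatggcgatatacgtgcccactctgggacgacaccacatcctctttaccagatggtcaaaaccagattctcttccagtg
Anxa2: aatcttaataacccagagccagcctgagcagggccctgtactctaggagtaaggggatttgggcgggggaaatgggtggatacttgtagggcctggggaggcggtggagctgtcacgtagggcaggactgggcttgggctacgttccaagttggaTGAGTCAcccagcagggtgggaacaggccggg
Myof: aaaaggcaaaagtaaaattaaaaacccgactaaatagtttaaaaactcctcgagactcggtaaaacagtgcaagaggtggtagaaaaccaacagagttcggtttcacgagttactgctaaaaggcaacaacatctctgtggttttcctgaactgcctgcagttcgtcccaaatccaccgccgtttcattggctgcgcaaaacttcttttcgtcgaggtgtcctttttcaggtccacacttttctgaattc
The AP-1 motif and the E-box CAGCTG, the latter a motif bound by myogenic factors, were searched on both strands, and no matches of the pair overlapped. Anxa6 was the member without a promoter in the table, and of the 9 searched Anxa2 alone held the AP-1 motif, which occurs in 6.75% of the 32851 promoters of this length in the table. An E-box was found before the start of Cav3 and before the first of the 2 RefSeq starts of Capn3, but not before the other, against 13% of all promoters. These matches describe letters and do not show that a factor binds.

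In GENCODE M21 (GRCm38, the assembly also called mm10) Dysf lies on the plus strand of chr6:84008590-84211060, and 5.49% of its exon bases are shared with antisense genes. Myof, on the minus strand of chr19:37899036-38043577, and Anxa1, on the minus strand of chr19:20373428-20390944, are on the same chromosome. Anxa2 is on the plus strand of chr9:69453620-69491795, with 2.63% of exon bases shared with an antisense gene. Anxa5 is on the minus strand of chr3:36448923-36475894 and Anxa6 on the minus strand of chr11:54979108-55033445. Cav3, a gene of 2 exons, is on the plus strand of chr6:112459505-112472872. Ptrf is on the minus strand of chr11:100956733-100970887 and Capn3 on the plus strand of chr2:120456019-120504913. Apart from Myof with Anxa1, Dysf with Cav3 and Anxa6 with Ptrf, no members share a chromosome, and counts are per whole gene.

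Of the 10 members, 4 were lower in cKO-labelled libraries at an adjusted p under 0.05, namely Trim72, Anxa1, Anxa2 and Myof, and 0 were higher by edgeR, nor was any higher at an unadjusted p under 0.05 or by DESeq2's Wald test. The background was 11.8% of the 14180 genes tested called with Ctrl-labelled libraries higher (1668 genes) and 12.6% called with cKO-labelled libraries higher (1786 genes). The median log2 fold change of the members was -0.32, against -0.02 over all genes tested, and 8 of the 10 were below 0. With a fold change over 2 required as well, which was the limit the study used, Anxa1 was the 1 member called, against a background of 3.92% with Ctrl-labelled libraries higher (556 genes) and 2.13% with cKO-labelled libraries higher (302 genes). That count of 1 became 2 without mouse 2 labelled Ctrl, without mouse 1 labelled cKO or without mouse 2 labelled cKO. Scaled by total counts in place of TMM, 6 members passed the adjusted p and 3 the fold limit as well, the background with a fold limit became 1023 and 157 genes and the one without a fold limit 4074 and 673 genes, and the median log2 fold change over all genes moved to -0.27. The groups did not overlap for 5 members, all with Ctrl-labelled libraries higher, against 21.9% of genes in that direction and 22.0% in the other. In whole muscle, fewer cells of a type and less RNA per cell cannot be told apart.

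**Figure D1:**
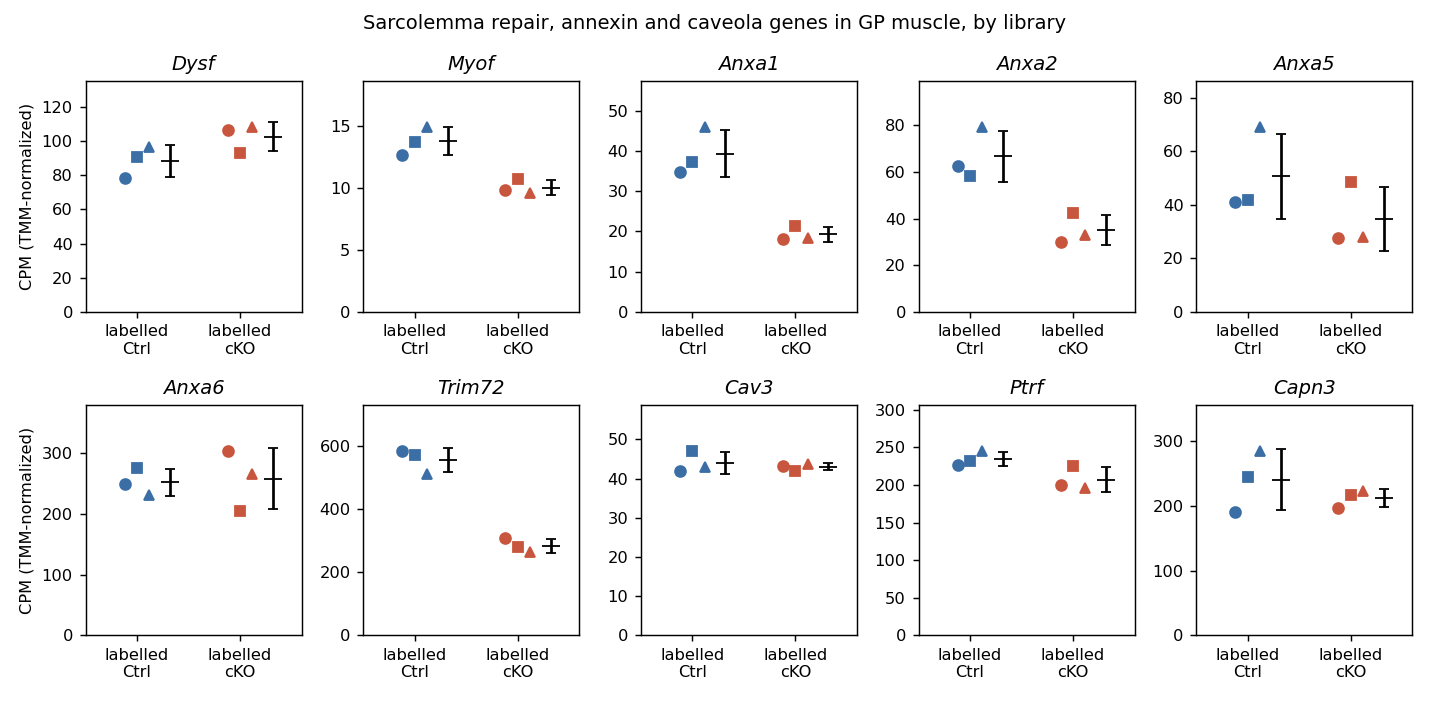
Normalised read count (CPM with TMM factors) of each of the 10 members in the 3 Ctrl-labelled libraries and the 3 labelled cKO. Each point is 1 mouse, and Trim72, Anxa1, Anxa2 and Myof are lower in every library labelled cKO than in any labelled Ctrl.

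The 2 ferlins of the set are large membrane proteins with several calcium-binding C2 domains. Dysferlin (Dysf), the ferlin of the adult fibre, was at 78.2, 91.1 and 96.5 CPM in Ctrl-labelled libraries and at 107, 93.2 and 108 CPM in cKO-labelled libraries. The groups overlapped, and the log2 fold change was 0.22 (95% interval -0.03 to 0.46, edgeR adjusted p = 0.175). It was 0.13 to 0.28 with 1 library left out. With total counts it was -0.04, which is 0.23 relative to the median gene in that scaling, and no direction is given for Dysf, since it did not pass. Myoferlin (Myof), the relative that is abundant in myoblasts and in other cell types, was at 12.7, 13.7 and 14.9 CPM in Ctrl-labelled libraries. In cKO-labelled libraries it was at 9.82, 10.7 and 9.57 CPM, each below the lowest library labelled Ctrl. The log2 fold change of Myof was -0.46 (SE 0.10, edgeR adjusted p = 0.0187), which leaves 72.8% of the level of Ctrl-labelled libraries. The fold change was -0.46 without mouse 2 labelled Ctrl, -0.45 without mouse 1 labelled cKO and -0.44 without mouse 3 labelled cKO, but the call was lost (edgeR adjusted p = 0.0607, 0.0553 and 0.063). Calls over all genes were also fewer in those fits, at 1820, 1789 and 1560 against 3454. The other ferlins added no call by edgeR or DESeq2, though both tested had an unadjusted p under 0.05. Fer1l5 had a log2 fold change of -0.35 (edgeR adjusted p = 0.119), Otof was below 1 CPM in every library, and Fer1l4 was below the filter.

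Of the 4 annexins of the set, 2 passed the test and 2 did not. Annexin A1 (Anxa1), an annexin of leukocytes and of injured tissue, was at 34.8, 37.3 and 46.0 CPM in Ctrl-labelled libraries and at 18.1, 21.3 and 18.3 CPM in cKO-labelled libraries. No library of one group reached the other, and the log2 fold change of -1.03 (SE 0.13, edgeR adjusted p = 0.00342) corresponds to a 2.04-fold lower level. It stayed past the threshold in all 13 alternatives (other scalings, filters and tests, and each library left out in turn), although without mouse 3 labelled Ctrl it came to -0.90 and was then under the fold limit of 2. Annexin A2 (Anxa2), which forms a complex with the S100 protein p11 and joins membranes, was at 62.4, 58.4 and 79.3 CPM in Ctrl-labelled libraries. In cKO-labelled libraries Anxa2 was at 29.8, 42.2 and 32.9 CPM, again without overlap. Its log2 fold change was -0.93 (SE 0.16, edgeR adjusted p = 0.00918), and it was past the threshold in all 13 alternatives.

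Annexin A5 (Anxa5), which assembles into lattices on torn membrane, varied most between mice of the 10 members. It was at 41.1, 41.7 and 69.1 CPM in Ctrl-labelled libraries and at 27.8, 48.6 and 27.9 CPM in cKO-labelled libraries. One library in each group, mouse 3 labelled Ctrl and mouse 2 labelled cKO, stood above its group. The log2 fold change of Anxa5 was -0.54 (95% interval -1.21 to 0.13, edgeR adjusted p = 0.203). Without mouse 2 labelled cKO it was -0.88 (edgeR adjusted p = 0.0403), and without mouse 3 labelled Ctrl it was -0.25 (edgeR adjusted p = 0.508). Mouse 2 labelled cKO also had the highest summed level of the tendon markers, at 714 CPM against 163 to 386 CPM in the other 5 libraries. Tendon, macrophage and leukocyte, adipocyte, smooth muscle and satellite cell sums peaked within each group in the same libraries as Anxa5. The macrophage and leukocyte sums there were 195 and 109 CPM, and the adipocyte sums 78.6 and 75.3 CPM. The other marker lists did not share this order, and the part of these cells in the Anxa5 values was not tested. Annexin A6 (Anxa6), the annexin of the set with the highest level and a component of the repair cap, was at 249, 276 and 231 CPM in Ctrl-labelled libraries and at 304, 204 and 266 CPM in cKO-labelled libraries. The groups overlapped, and the log2 fold change of 0.03 had an interval from -0.32 to 0.39 (edgeR adjusted p = 0.889). Its sign turned without mouse 3 labelled Ctrl, mouse 1 labelled cKO or mouse 3 labelled cKO, so no direction is given for Anxa6.

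MG53, the product of Trim72, is a tripartite-motif protein of striated muscle that gathers vesicles at a membrane wound. Trim72 was at 584, 569 and 511 CPM in Ctrl-labelled libraries and at 308, 279 and 265 CPM in cKO-labelled libraries. The lowest library labelled Ctrl was well above the highest labelled cKO, and the mean of the latter was 51.2% of that of the former. The log2 fold change of Trim72 was -0.97 (SE 0.10, edgeR adjusted p = 0.00222). Over the 13 alternatives it ranged from -1.22 to -0.93, with an adjusted p of at most 0.0145, reached in edgeR without mouse 2 labelled Ctrl. Trim72 lies on chromosome 7 of GRCm38 (mm10), from 128003949 to 128011033 on the plus strand, and 27.6% of its exon bases are shared with the antisense gene Gm15533. Gm15533 is not among the genes listed, and whether counting used strand is not given in the sources used here. Were counting unstranded, antisense reads over those bases would be counted for Trim72, and they cannot be told apart. Of the 8 myofibre markers, 6 were higher in cKO-labelled libraries (75%, against 12.6% of all genes tested). They were Ckm and the fast-fibre genes Mylpf, Tnnt3, Atp2a1, Pvalb and Tnnc2. Acta1 and Des, which all fibres use, did not pass (edgeR adjusted p = 0.474 and 0.853), and the slow fibre markers were lower in sum, as Trim72 was.

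The 2 caveola members did not pass the test. Caveolin 3 (Cav3), the caveolin of muscle fibres, was at 41.9, 47.1 and 42.9 CPM in Ctrl-labelled libraries and at 43.3, 42.0 and 43.7 CPM in cKO-labelled libraries. The groups overlapped, the log2 fold change was -0.03, and the interval of -0.20 to 0.14 was the narrowest of the 10 members (edgeR adjusted p = 0.779). Cavin 1 (Ptrf), the coat protein without which caveolae do not form, was at 227, 231 and 245 CPM in Ctrl-labelled libraries and at 200, 226 and 195 CPM in cKO-labelled libraries. Its groups did not overlap, by a small gap, but the log2 fold change of -0.18 missed the threshold (95% interval -0.38 to 0.03, edgeR adjusted p = 0.179). With total counts Cav3 passed at -0.29 and Ptrf at -0.43 (edgeR adjusted p = 0.0311 and 0.0266), values that were -0.02 and -0.16 relative to the median gene in that scaling.

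Calpain 3 (Capn3), the calpain of skeletal muscle, was at 191, 246 and 285 CPM in Ctrl-labelled libraries and at 196, 217 and 224 CPM in cKO-labelled libraries. The values of cKO-labelled libraries fell inside the range of the others. The log2 fold change of Capn3 was -0.18 (95% interval -0.53 to 0.17, edgeR adjusted p = 0.403), and it was -0.32 without mouse 1 labelled Ctrl and -0.039 without mouse 3 labelled Ctrl. Of its exon bases, 7.68% are shared with Ganc on the same strand.

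**Figure D2:**
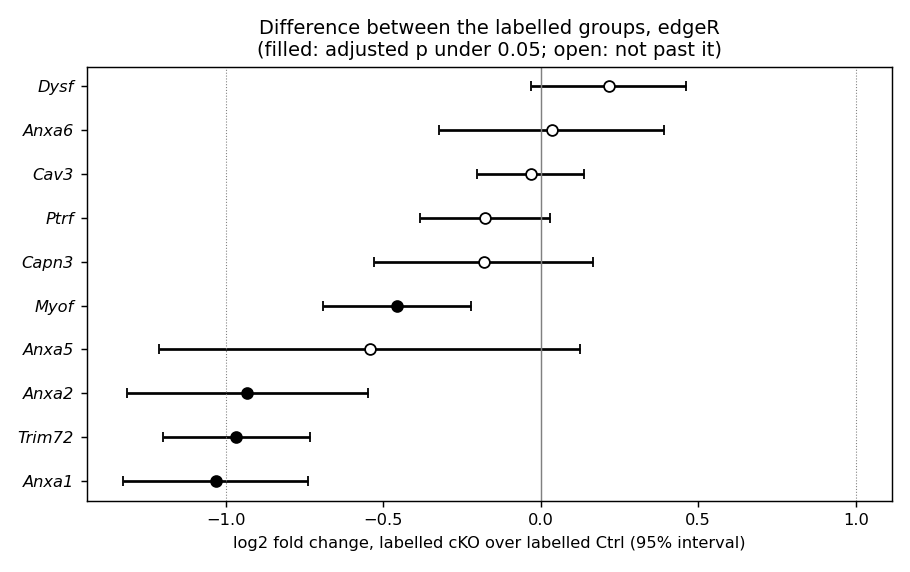
Log2 fold change of each member, cKO-labelled libraries over those labelled Ctrl, with 95% intervals from edgeR. Filled points pass an adjusted p of 0.05, and the 4 filled genes lie between -1.03 for Anxa1 and -0.46 for Myof, while the intervals of the other 6 span 0.

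Ratios of raw counts within a library do not depend on the scaling between libraries. Of 10 pairs of genes compared, 5 had groups that did not overlap, each with an exact two-sided permutation p of 0.1 (0.2 after Benjamini-Hochberg adjustment over the 10 pairs), and 0.1 is the smallest p that 3 against 3 allows. The log2 ratio of Myof to Dysf was -2.68 ± 0.05 (SD, n = 3) with the Ctrl label and -3.36 ± 0.20 in cKO-labelled libraries, so Myof was lower relative to Dysf in every library labelled cKO. Trim72 to Dysf went from 2.65 ± 0.25 to 1.47 ± 0.15, a difference of -1.18. Against Anxa6, Anxa1 went from -2.68 ± 0.31 to -3.73 ± 0.42, a difference of -1.04. Anxa2 against Anxa6 went from -1.93 ± 0.35 to -2.88 ± 0.55, a difference of -0.95. Its groups nearly met, at -2.24 in mouse 2 labelled Ctrl and -2.28 in mouse 2 labelled cKO. That difference was -0.72 without mouse 1 labelled cKO and -1.26 without mouse 2 labelled cKO. The fifth pair, Capn3 to Capn1, was at 1.29 ± 0.25 in Ctrl-labelled libraries and at 0.70 ± 0.20 in cKO-labelled libraries. By contrast, Anxa2 to its partner S100a10 was at 1.24 ± 0.22 and 1.14 ± 0.21, with overlapping groups (exact permutation p = 0.6). Within the caveola genes the differences were -0.15 for Ptrf to Cav3, 0.15 for Murc to Cav3 and 0.0043 for Cav1 to Cav3, all with overlapping groups (exact permutation p = 0.2, 0.4 and 0.9). With 1 library left out they ran from -0.23 to -0.098, from 0.049 to 0.30 and from -0.074 to 0.092. Anxa5 to Anxa6 differed by -0.57, also with overlapping groups (exact permutation p = 0.3), and by -0.26 without mouse 3 labelled Ctrl, -0.31 without mouse 1 labelled cKO and -0.998 without mouse 2 labelled cKO.

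Levels were compared between genes as CPM per kilobase of exon (GENCODE M21). In Ctrl-labelled libraries the order was led by Trim72 at a mean level of 249 CPM per kilobase, followed by Anxa6 at 86.0, Ptrf at 65.4, Capn3 at 47.9, Cav3 at 38.0, Anxa5 at 28.5, Anxa2 at 17.9, Anxa1 at 13.5, Dysf at 10.6 and Myof at 1.09. Capn3, Cav3 and Anxa5 overlapped with each other, as did Anxa2 with Anxa1, and they are not ordered. In cKO-labelled libraries Trim72 was still first, at a mean level of 127 CPM per kilobase, and Dysf, at 12.3, overlapped with Anxa2 at 9.37 and came before Anxa1 at 6.61. Myof was the lowest member in both groups, at 0.796 CPM per kilobase in cKO-labelled libraries. With the length of the transcript of the longest coding sequence in place of all exon bases, Capn3 and Ptrf overlapped in both groups. By that length Anxa2, at a mean of 46.1 in Ctrl-labelled libraries, overlapped with Cav3 at 38.0 and was above Anxa5 at 29.3 without overlap, and in cKO-labelled libraries, at 24.2, it was above Dysf at 15.5 without overlap. The place of Anxa2 therefore depends on the length used.

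**Figure D3:**
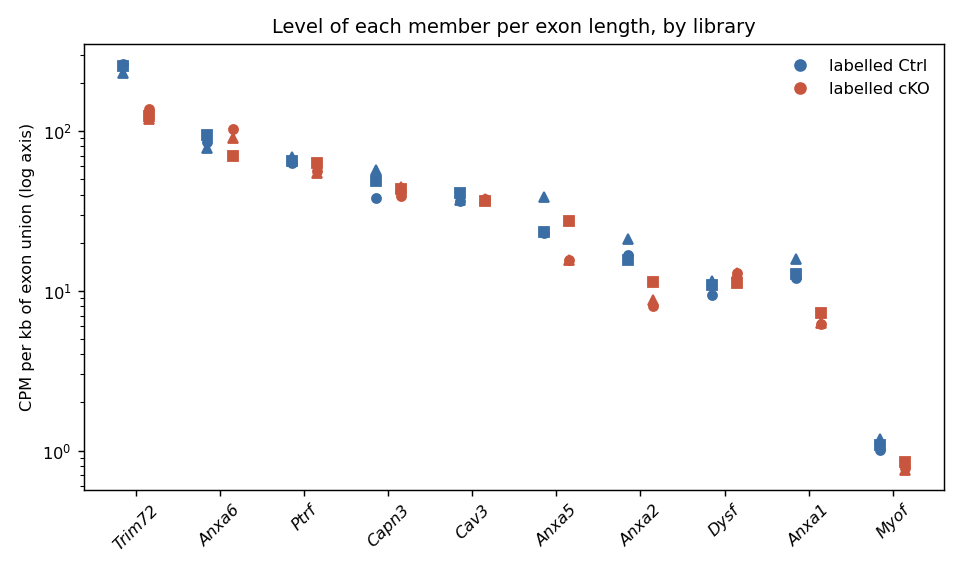
Level of each member per exon length (CPM per kilobase, log axis) in every library. Trim72 is the highest member in all 6 libraries and Myof the lowest, and the points of Anxa1, Anxa2 and Trim72 are lower in cKO-labelled libraries.

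Beyond the members, 60 other genes of the same functions were listed, of which 58 were in the files and 54 were tested. Of the 54, 15 were lower in cKO-labelled libraries (27.8%) and 6 were higher (11.1%), while 33 did not pass, and the median log2 fold change was -0.23, against -0.02 over all genes. Over all genes tested the shares called were 11.8% and 12.6%, so the share higher is near the background. With total counts 32 were lower and 3 higher, where over all genes 4074 and 673 of 14180 were. The count of 21 also depended on single libraries. Without mouse 1 labelled Ctrl it was 9 (5 lower, 4 higher), and without mouse 2 labelled Ctrl 12 (7 and 5). Without mouse 1 labelled cKO it was 12 (8 and 4), and without mouse 3 labelled cKO 8 (4 and 4). Calls over all genes were also fewer in those fits, at 1575, 1820, 1789 and 1560 against 3454. Past a fold change of 2 as well were 2 lower genes, Anxa4 and Capn6, and 1 higher, Ano5. Over all genes tested those shares were 3.92% and 2.13%, so both counts are near the background. Each of these genes stayed past an adjusted p of 0.05 in all 13 alternatives. Ano5 was under the fold limit with total counts and without mouse 2 labelled Ctrl, mouse 1 labelled cKO or mouse 3 labelled cKO, and the count of genes past both limits was 6 without mouse 3 labelled Ctrl.

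Among the S100 proteins, small calcium-binding partners of the annexins, 3 of 7 were lower in cKO-labelled libraries and 0 were higher. In edgeR 7 of 7 log2 fold changes were below 0, and DESeq2 also called 0 higher. Over all genes tested 11.8% were called lower and 12.6% higher, so 0 higher in a list this short is no result about the list. S100a10, the p11 subunit bound by annexin A2, was at 30.4, 25.4 and 28.5 CPM in Ctrl-labelled libraries and at 13.3, 16.8 and 17.4 CPM in cKO-labelled libraries, with a log2 fold change of -0.83 (edgeR adjusted p = 0.00609). S100a11 followed at -0.65 and S100a13 at -0.45 (edgeR adjusted p = 0.027 and 0.0252). S100a1, the S100 of striated muscle and the highest in CPM of the list, had a log2 fold change of -0.25 (edgeR adjusted p = 0.189). Of the 6 other annexins tested, 1 passed. Anxa4 was at 28.9, 31.1 and 34.3 CPM in Ctrl-labelled libraries and at 12.8, 8.49 and 10.4 CPM in cKO-labelled libraries, a log2 fold change of -1.57 (SE 0.15, edgeR adjusted p = 0.00194). Anxa7, the highest in CPM of the list, was at a mean of 115 and 138 CPM and did not pass (edgeR adjusted p = 0.163).

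Of the 12 other caveola genes tested, 4 were lower in cKO-labelled libraries and 0 were higher by edgeR. At an unadjusted p under 0.05 and by DESeq2, 0 were higher as well. The shares over all genes tested were 11.8% lower and 12.6% higher. The 4 were Ehd3 at a log2 fold change of -0.96, Ehd4 at -0.58, Pacsin2 at -0.45 and Ehd2 at -0.25 (edgeR adjusted p = 0.0225, 0.012, 0.0123 and 0.0417). Ehd2 is an ATPase of the caveola neck and Pacsin2 a membrane-bending protein, while Ehd3 and Ehd4 act mainly in endosome recycling. The structural genes did not pass, with Cav1 at -0.03 (edgeR adjusted p = 0.876) and Murc, the older symbol of the muscle cavin Cavin4, at 0.11 (edgeR adjusted p = 0.577). Pacsin3, the highest in CPM of the list, was at -0.13 (edgeR adjusted p = 0.301).

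Calpains went both ways, with 3 of 9 lower and 2 of 9 higher in cKO-labelled libraries. These are 33.3% and 22.2%, against 11.8% and 12.6% of all genes tested. Capn6, a calpain that lacks protease activity and is prominent in embryonic muscle, was at 13.9, 16.7 and 16.7 CPM in Ctrl-labelled libraries and at 4.97, 6.73 and 4.41 CPM in cKO-labelled libraries (log2 fold change -1.56, SE 0.17, edgeR adjusted p = 0.00273). Capn15 and Capn2 were also lower, by -0.46 and -0.30 on the log2 scale (edgeR adjusted p = 0.0352 and 0.0332). Capn1, a ubiquitous calpain, was higher by 0.43 and Capn7 by 0.53 (edgeR adjusted p = 0.0145 and 0.00471). Capn1 kept its call in 8 of the 13 alternatives. The shared small subunit Capns1, the highest in CPM of the list, was at -0.06 (edgeR adjusted p = 0.565).

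Of the 18 dysferlin partners and other repair genes tested, 4 were lower and 4 were higher. This is 22.2% in each direction, against 11.8% lower and 12.6% higher over all genes tested. Ano5, a membrane protein whose inherited loss causes a muscle disease like that of dysferlin, was at 98.1, 94.4 and 113 CPM in Ctrl-labelled libraries and at 216, 182 and 224 CPM in cKO-labelled libraries. Every library labelled cKO was above every library labelled Ctrl, and the log2 fold change of 1.03 (SE 0.11, edgeR adjusted p = 0.00272) had the sign opposite to those of Trim72 and Anxa1. Chmp4b and Vps4a, the filament protein and the ATPase of the ESCRT machinery that buds off damaged membrane, were higher by 0.45 and 0.48 (edgeR adjusted p = 0.00641 and 0.00745). Smpd1, the acid sphingomyelinase of lysosomes, was higher by 0.31 (edgeR adjusted p = 0.0342). Pdcd6 and its binding partner Pdcd6ip, which recruit ESCRT proteins to wounds, were at -0.46 and -0.26 (edgeR adjusted p = 0.0156 and 0.0469). Also lower were the parvin Parva at -0.44 and the galectin Lgals3 at 50.0% of its mean in the other group (edgeR adjusted p = 0.0196 and 0.0292). The parvin Parvb, at -0.14, did not pass (edgeR adjusted p = 0.324). Bin1, a shaper of T-tubules and the highest in CPM of the list, was at a mean of 923 and 1091 CPM and did not pass (edgeR adjusted p = 0.207).

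**Figure D4:**
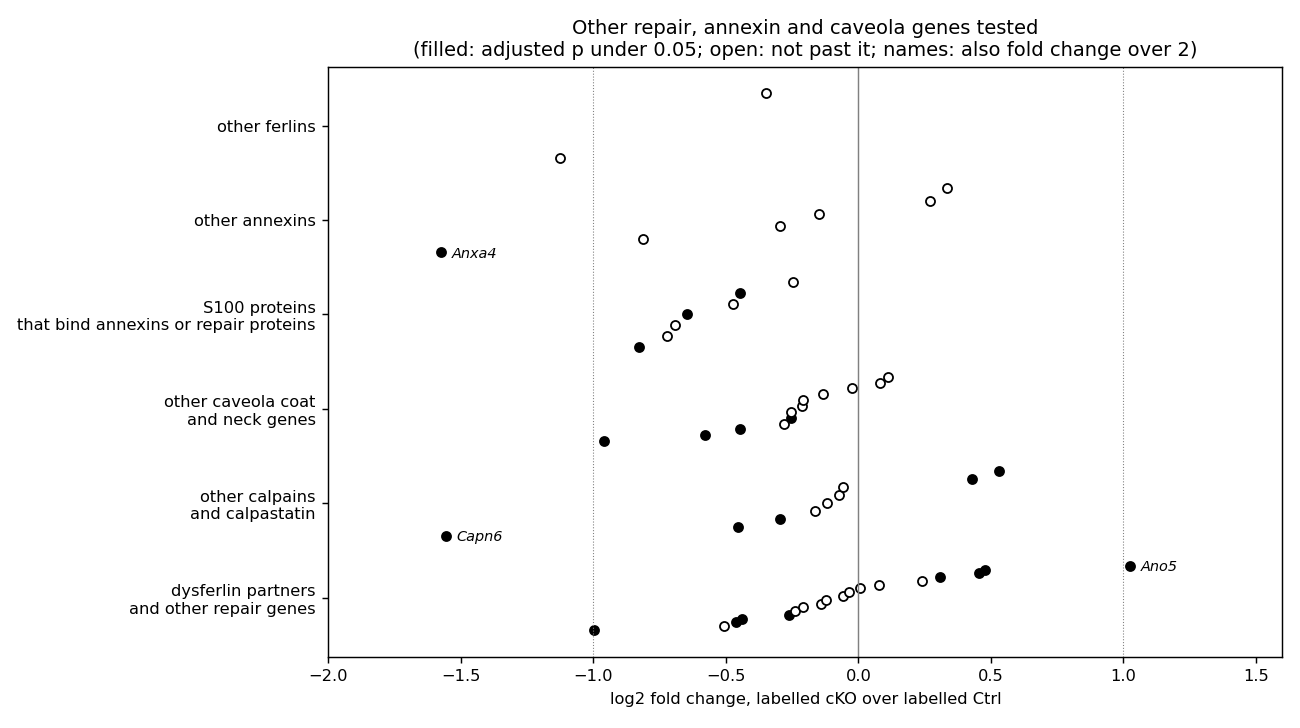
Log2 fold change, cKO-labelled libraries over those labelled Ctrl, of the 54 other repair, annexin and caveola genes tested, by list. Filled points pass an adjusted p of 0.05, with Anxa4 and Capn6 farthest to the negative side and Ano5 farthest to the positive side among them.

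Markers of fibre types and of other cells differed between the same libraries. Counts of markers called, also those of fibre types, stand against 11.8% lower and 12.6% higher over all genes tested. The fibre markers were present, with skeletal actin Acta1 at a mean of 31719 and 36198 CPM. Summed levels of the 9 macrophage and leukocyte markers were 171 to 195 CPM in Ctrl-labelled libraries and 77.7 to 109 CPM in cKO-labelled libraries, with 6 of 9 called lower in the latter by edgeR, 9 of 9 by DESeq2, and Lyz2 the highest of them at 78.9 and 37.5 CPM. The sums of regenerating fibre, smooth muscle, Schwann cell, endothelial and slow fibre markers, given below, were also lower without overlap. This is the direction of Anxa1, Anxa2 and Myof, and the part of any of these cell types in those values was not tested. Markers of regenerating fibres summed to 236 to 307 CPM against 102 to 152 CPM, with Myh3, Myog and Ncam1 lower and Myh8 higher in cKO-labelled libraries. Smooth muscle markers summed to 465 to 484 CPM against 369 to 397 CPM with 4 of 7 lower, Myh11, Tagln, Cspg4 and Cnn1. Schwann cell markers summed to 156 to 227 CPM against 89.4 to 145 CPM, with Pmp22 the 1 of 6 called lower. Fibro-adipogenic progenitor markers overlapped in sum, at 761 to 815 CPM and 676 to 847 CPM, with 3 of 7 lower, Ly6a, Lum and Mfap5. Endothelial markers, at 472 to 492 CPM and 437 to 462 CPM, came from cells rich in caveolae and had 0 of 8 called by edgeR or DESeq2 and 1, Tie1, at an unadjusted p under 0.05. Adipocyte and tendon markers had 0 of 6 each called by edgeR, by DESeq2 and at an unadjusted p under 0.05. Satellite cell markers summed to 19.3 to 20.4 CPM against 24.4 to 30.5 CPM, with Cdh15 the 1 of 4 called, higher in cKO-labelled libraries.

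Fibre type markers differed as well. Slow fibre markers summed to 7888 to 13251 CPM in Ctrl-labelled libraries and to 389 to 3443 CPM in cKO-labelled libraries, with Tnnt1, Myl2 and Atp2a2 the 3 of 7 that passed in edgeR (6 of 7 in DESeq2), all lower in the latter. Type IIb markers summed to 22374 to 52018 CPM against 81697 to 115270 CPM, with 4 of 4 higher in cKO-labelled libraries, Myh4, Mybpc2, Actn3 and Pvalb. The myofibre markers, 5 of whose 8 genes are fast-fibre genes and which share Pvalb with the type IIb list, summed to 82077 to 94721 CPM against 123720 to 153040 CPM. None of the marker lists had a gene at 0 in all 6 libraries. The part of the fibre type difference in the Trim72 and Ano5 values was not tested.

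**Figure D5:**
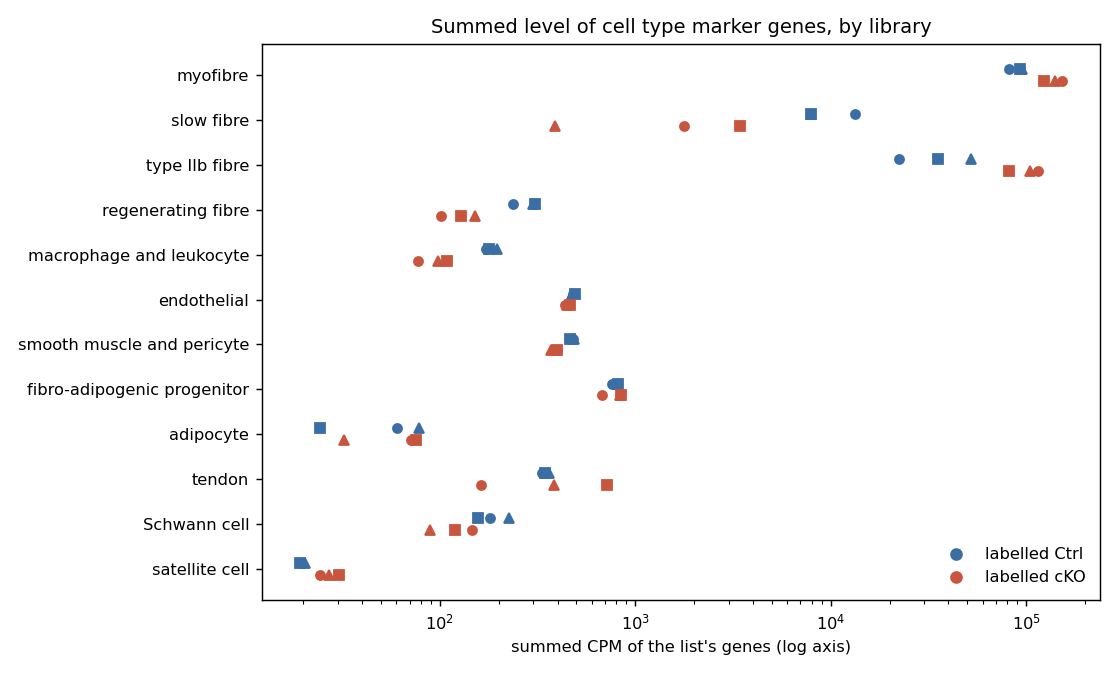
Summed level of each marker list (CPM, log axis) in the 6 libraries, 1 point per mouse. The macrophage and leukocyte, regenerating fibre and slow fibre sums are lower, and the type IIb and myofibre sums higher, in every library labelled cKO than in any labelled Ctrl.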

How the data were processed

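RNA of GP muscle from 3 mice labelled Ctrl and 3 labelled cKO was sequenced from mRNA libraries. The authors deposited 1 table of whole-number counts per gene and library, without normalization. The submitters' processing notes name FastQC 0.11.8, Trimmomatic 0.39, HISAT2 2.1.0, featureCounts 1.6.2 and mm10, and the annotation and the strand setting are not given in the sources used here. Gene-level counts cannot separate overlapping genes.

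The fit was made with edgeR 4.0.16 under R 4.3.3 (filterByExpr, TMM, estimateDisp, glmQLFit, glmQLFTest, Benjamini-Hochberg adjustment over 14180 genes), and CPM used TMM factors. Calls needed an adjusted p below 0.05 and were also counted with a fold change over 2, the limits of the study, which used DESeq. Standard errors and 95% intervals came from the F statistic. For count ratios an exact two-sided permutation test was used. Both count models were first tested on simulated data. Alternatives were DESeq2 size factors or total counts for scaling, a filter of 10 counts in every library or none, the Wald test of DESeq2 1.42.0, a replicate block, a robust fit and each library left out. Positions and lengths are from GENCODE M21 (GRCm38, the assembly also called mm10), in which all 10 members were found.

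The members and lists were chosen with earlier results of these data known. Named are the members, Ppapdc3, genes used in a ratio, genes of the lists past both limits, the most abundant gene of a list and genes that account for a count of 5 or fewer. Not every marker gene this rule allows is printed. Protein sequences, Fer1l6 and Ahnak2 were not analysed here.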

Additional observations from a re-analysis of the deposited data

How the results depend on the processing

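Across the 13 alternatives, Trim72, Anxa1 and Anxa2 stayed past the threshold and Myof in 9 of them, with 3 to 6 members past it in all. Fold changes changed sign for Dysf with total counts (-0.042), for Anxa6 with total counts (-0.23) and without mouse 3 labelled Ctrl (-0.022), mouse 1 labelled cKO (-0.11) or mouse 3 labelled cKO (-0.0041; range with 1 library left out -0.11 to 0.16), and for Cav3 without mouse 2 labelled Ctrl (0.022; range -0.063 to 0.022). Relative to the median gene, Dysf (0.23) and Anxa6 (0.038) kept their sign with total counts. None of these 3 genes was past the threshold in the test as reported. Members past a fold change of 2 numbered 3 with total counts and 1 to 2 with 1 library left out, against 1. The other repair genes called numbered 35 with total counts and 8 to 21 with 1 library left out, against 21, and with the fold limit 7 and 2 to 6, against 3. Over all genes, calls numbered 1560 to 3585 with 1 library left out, against 3454, and with the fold limit 580 to 1035, against 858. The cause of these changes was not tested, except that fewer libraries were used in the leave-one-out fits.

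Mouse numbers are shared by the groups, but deviations of same-numbered mice correlated at 0.084, -0.21 and -0.0020, so the numbers were not taken as pairs. A fit with the replicate block called 1899 genes, 3 members (Myof at an edgeR adjusted p of 0.0569) and 11 of the other repair genes.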
